A study of Homo sapiens with 8 samples.

Results

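Annexins and S100 proteins are calcium-binding partners at the cell membrane and the cytoskeleton, and 10 of their genes were followed in neuroblastoma cells carrying a TRPM7 shRNA: the annexins ANXA1, ANXA2, ANXA4, ANXA5 and ANXA6 and the S100 genes S100A4, S100A6, S100A10, S100A11 and S100A13. They were taken by gene symbol and covered 20 of the 47322 probes of an Illumina HumanHT-12 v4 bead array. 5 of the 10 genes had more than 1 probe, and the probe of highest mean signal stands for its gene. Other detected probes are given where they differ in direction within a line. The arrays were made to find genes whose expression depends on TRPM7, and the 8 of them held 4 groups of 2: SH-SY5Y with scrambled shRNA, SH-SY5Y with TRPM7 shRNA, SH-EP2 with scrambled shRNA and SH-EP2 with TRPM7 shRNA. SH-SY5Y is a neuroblastic human neuroblastoma line and SH-EP2 an epithelial-like, non-neuronal one. The study describes both as subclones of SK-N-SH. All 4 groups carried a lentiviral shRNA and had been selected with puromycin, so that the control (scrambled, nonfunctional) cells were transduced too. The arrays carry 1 TRPM7 shRNA sequence, and effects of that sequence on other genes were not tested on them. The study used another TRPM7 shRNA in SH-EP2 cells as a check on migration, which is not on these arrays. Neither the labels nor the study's methods state whether the 2 replicates of a group were separate cultures, so p-values measure the spread between these samples, which may be technical.

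TRPM7 is a channel for calcium, magnesium and zinc joined to a kinase, and annexin A1 is a substrate of that kinase. Annexins bind acidic phospholipids when calcium rises and act in membrane repair, vesicle traffic and the resolution of inflammation. S100 proteins are small EF-hand dimers, many of which bind an annexin or a cytoskeletal protein. S100A10 pairs with annexin A2, S100A11 with annexin A1, and S100A4 with the heavy chain of nonmuscle myosin IIA. Some members of both families are known as being abundant in mesenchymal cells, and S100A4 as a marker of motile, metastatic tumour cells.

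In SH-SY5Y cells, the TRPM7 shRNA went with lower S100A10, S100A4, ANXA5 and S100A6 and higher ANXA1, with changes between 1.27-fold and 1.96-fold. Of all probes, 2.11% were called there. The ANXA1 signal was close to background in this line. Its log2 difference was 0.78, and 0.23 with no background correction, which was not called. S100A6 was just past the threshold (limma adjusted p = 0.0449). In SH-EP2 cells, 0 of the 10 genes passed the same test, while 3.02% of all probes did. S100A10 and S100A4 differed between the lines in their response by a test of the difference itself. 9 of the 10 genes were higher in SH-EP2 than in SH-SY5Y control cells, between 3.17-fold and 112-fold. Over all probes, 26.2% passed in this comparison and 12.2% were higher in SH-EP2. The 112-fold was that of ANXA1, whose SH-SY5Y signal was close to background. Its log2 difference was 6.81, and 4.84 with no background correction. The values below are log2 signals after background correction and quantile normalization, differences are log2 differences between group means with their standard error (SE), and a gene was called at a limma p under 0.05 after Benjamini-Hochberg adjustment over all 47322 probes.

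TRPM7 itself was read by 1 probe, which was not well above background on any of the 8 arrays (detection p between 0.0753 and 0.201), so that the knockdown could not be checked on these arrays. Median signals were between 104.7 and 119.9 per array, and 40.9% to 44.2% of probes counted as detected (detection p under 0.05). The highest detection p of any of the 10 genes on any array was 0.0026, that of ANXA4. The labelled cell types were checked with markers that hold none of the 10 genes. Of 12 noradrenergic genes, 11 were detected on both arrays of each SH-SY5Y group, and 7 were undetected in both SH-EP2 groups. Of 12 mesenchymal genes, all 12 were detected in both SH-EP2 groups, and FN1 and PRRX1 were undetected in both SH-SY5Y groups. Most of the 12 were thus detected in SH-SY5Y too: 9 in each replicate of its control group, and 10 with the shRNA. Between the control cells of the lines, 10 of these 12 genes were called higher in SH-EP2 and 2 were called lower. TH, the rate-limiting enzyme of catecholamine synthesis, was undetected in all groups. Of the epithelial genes KRT5, KRT14 and EPCAM, none was detected in SH-EP2, the line labelled epithelial-like. EPCAM was at a mean log2 signal of 3.22 in SH-SY5Y control cells and 4.61 with the TRPM7 shRNA (adjusted p = 0.195).

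**Figure D1:**
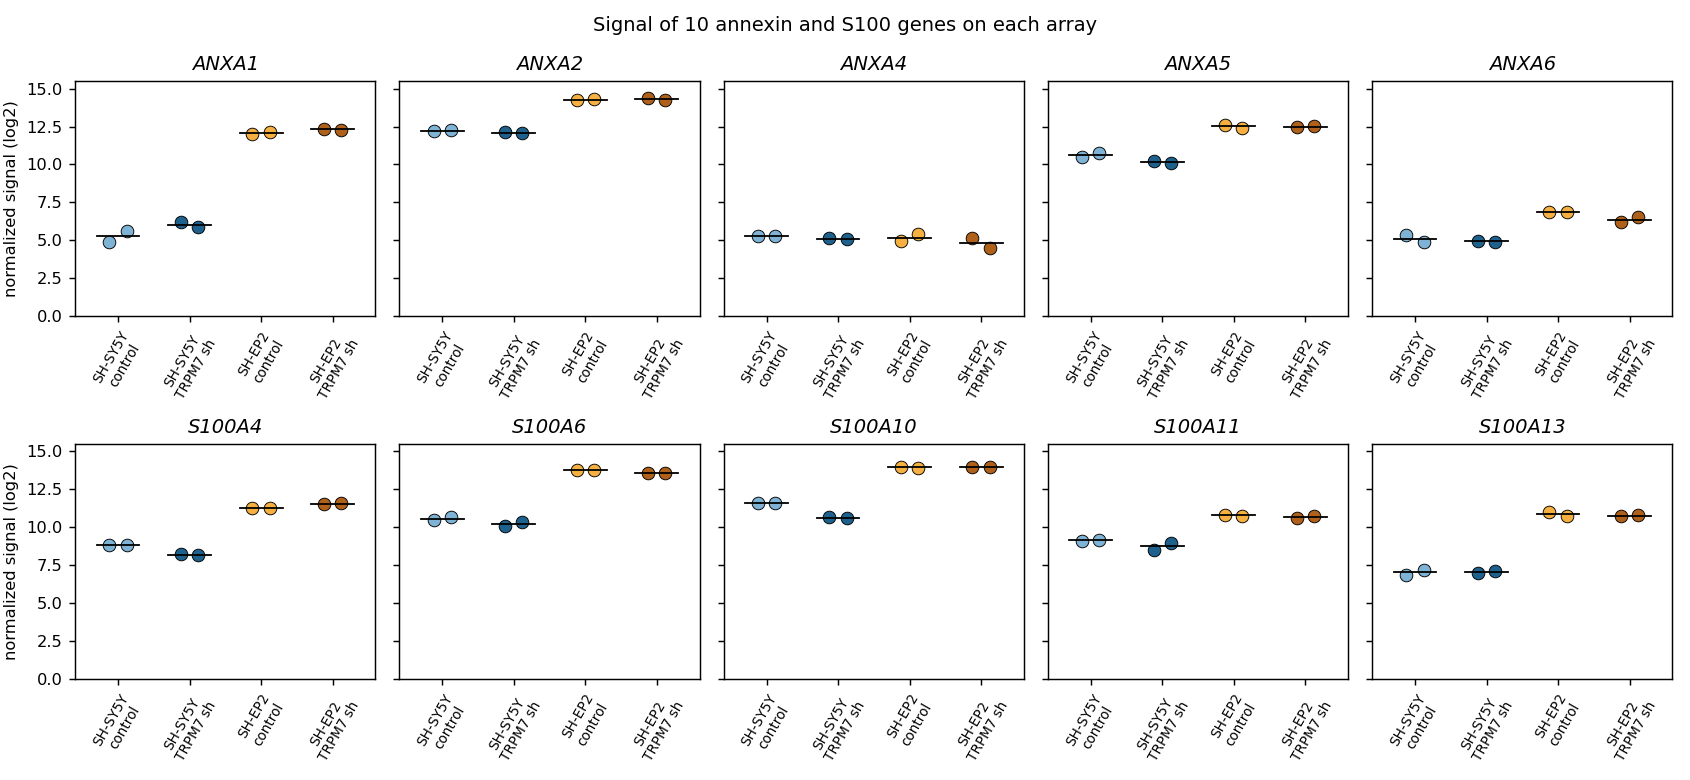
Normalized log2 signal (vertical axis) of each of the 10 genes on each of the 8 arrays. Each point is 1 array, each line the mean of a group of 2, and colours mark the 4 groups. The SH-EP2 arrays lie above the SH-SY5Y arrays in 9 panels, whereas the 4 groups of ANXA4 lie between 4.46 and 5.39, and the step down from control to TRPM7 shRNA in SH-SY5Y is plainest for S100A10, from 11.59 to 10.62.

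Upstream sequence is shown for 3 genes with different responses in SH-SY5Y cells, ANXA1, which was higher, and S100A10 and S100A4, which were lower and whose response differed between the lines. The windows are the 250 bases before the annotated start in RefSeq, build GRCh38.p14, written on the strand of the gene. ANXA1 is at chr9:73151615-73151864 on the plus strand, S100A10 at chr1:151993860-151994109 on the minus strand and S100A4 at chr1:153545807-153546056 on the minus strand. Capitals mark the letters TATAAA in ANXA1 and S100A4 and GGGCGG in S100A10.
ANXA1: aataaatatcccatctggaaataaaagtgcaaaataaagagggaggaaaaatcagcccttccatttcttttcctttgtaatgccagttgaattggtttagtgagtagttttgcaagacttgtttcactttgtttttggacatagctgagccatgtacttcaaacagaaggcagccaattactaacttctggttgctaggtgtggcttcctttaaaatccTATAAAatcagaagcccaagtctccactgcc
S100A10: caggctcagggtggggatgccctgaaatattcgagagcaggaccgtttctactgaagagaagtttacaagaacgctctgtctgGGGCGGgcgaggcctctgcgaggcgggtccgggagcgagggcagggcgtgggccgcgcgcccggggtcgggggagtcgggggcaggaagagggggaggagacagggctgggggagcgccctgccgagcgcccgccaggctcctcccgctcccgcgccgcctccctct
S100A4: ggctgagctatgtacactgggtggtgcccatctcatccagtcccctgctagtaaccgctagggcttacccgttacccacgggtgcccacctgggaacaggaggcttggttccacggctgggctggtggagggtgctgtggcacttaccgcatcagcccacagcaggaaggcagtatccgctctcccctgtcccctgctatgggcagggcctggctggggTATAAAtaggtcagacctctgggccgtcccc

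The ANXA1 window held 38.4% G and C, the lowest of the 14 windows of the 10 genes, which ranged up to 78.8% with a median of 64.6%, against a median of 58% over all 35116 windows. The S100A10 window held 71.2% and that of S100A4 62.8%. The letters TATAAA, searched on both strands, were in 10.7% of all windows and in 4 of the 14. These 4 were windows of ANXA1, ANXA2, S100A4 and S100A13. The letters GGGCGG, also on both strands, were in 42.6% of all windows and in 9 of the 14. These 9 belonged to 8 of the 10 genes, all but ANXA1 and S100A4. TGANTCA, the letters bound by AP-1, were in 6.57% of all windows and in 1 of the 14, that of ANXA2. The matches describe the letters of these windows, and no binding was measured here.

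Between the control cells of the lines, 9 of the 10 genes were called and all 9 were higher in SH-EP2. Of all probes, 26.2% were called in either direction and 12.2% were called higher in SH-EP2. Of the 23961 probes detected on at least 2 arrays, 50.3% were called in either direction and 23.4% higher in SH-EP2. The median difference of the 10 genes was 2.19 on the log2 scale, beside -0.02 over all probes. In bulk RNA, a smaller share of cells that express a gene and less RNA of it per cell cannot be told apart. The study's methods give a different culture medium for each line, although the labels name the same medium for both. By the methods, line and medium cannot be told apart in this comparison.

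ANXA1, the annexin known for its anti-inflammatory N-terminal peptide, differed most among the 10 genes. Its log2 signal was 4.89 and 5.61 on the SH-SY5Y control arrays and 12.005 and 12.11 on the SH-EP2 control arrays, a difference of 6.81 (SE 0.17, 112-fold, adjusted p = 3.43e-17). The lines did not overlap, and with the shRNA groups the order of the group means was SH-EP2 TRPM7 shRNA, SH-EP2 control, SH-SY5Y TRPM7 shRNA and SH-SY5Y control. The neighbouring steps in that order within SH-EP2 did not pass the test, and those within SH-SY5Y did, as given below. The line difference was 4.84 with no background correction and ran up to 7.16 over the settings tried, all past the threshold.

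S100A13, which takes part in release of growth factors without a signal peptide, was 14.2-fold higher in SH-EP2 control cells. Its log2 signal was 6.84 and 7.19 on the SH-SY5Y control arrays against 10.98 and 10.71 in SH-EP2. A further S100A13 probe gave a difference of 5.15 (35.5-fold) beside the 3.83 of the brightest one. The other 4 probes of the gene were undetected on all SH-SY5Y arrays. Most of these were undetected on all SH-EP2 arrays as well and so show no line difference. With the mean over the probes of the gene, undetected ones included, the S100A13 difference was 1.80. S100A6, calcyclin, was 9.21-fold higher, from 10.45 and 10.67 to 13.76 and 13.77. Both S100 genes kept the arrays of the lines apart.

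The remaining called genes differed by smaller folds. S100A4 was 5.46-fold higher (8.83 and 8.81 in SH-SY5Y against 11.28 and 11.26 in SH-EP2), and S100A10 was 5.08-fold higher (11.60 and 11.59 against 13.98 and 13.89). ANXA2, which carries S100A10 to the membrane, was 4.12-fold higher, from 12.18 and 12.30 to 14.24 and 14.32. ANXA5, used as a probe of exposed phosphatidylserine, was 3.68-fold higher, ANXA6 3.37-fold and S100A11 3.17-fold. The ANXA6 log2 difference was 1.75, and 0.63 with no background correction.

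ANXA2 shares nearly identical sequence with its processed pseudogenes, so its probe signals are uncertain. Its 3 probes gave line differences of 2.04, 1.53 and 2.66, all called. The probe named for the pseudogene ANXA2P2 gave 0.07 (95% interval -0.06 to 0.19), that for ANXA2P1 1.56 and that for ANXA2P3 3.97. None of these 3 pseudogene probes, the brightest of each name, passed the test with the TRPM7 shRNA in either line. ANXA4, an annexin of epithelial cells, was the exception among the 10 genes, at 5.31 and 5.29 in SH-SY5Y against 4.93 and 5.39 in SH-EP2. The arrays overlapped, and the difference of -0.14 had a 95% interval of -0.74 to 0.46.

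With the TRPM7 shRNA in SH-SY5Y cells, 1 of the 10 genes was called higher and 4 were called lower, against 0.807% of all probes called higher and 1.3% called lower (2.11% in all, and 4.12% of probes detected on at least 2 arrays). The median difference over the 10 genes was -0.27, beside 0.0048 over all probes. Arrays of the 2 groups did not overlap for 8 of the 10 genes, as for 39.1% of all probes, and 6 of the 10 had an unadjusted p under 0.05, as had 11.4% of all probes. Under median scaling the split over all probes turned from 382 higher and 617 lower to 553 higher and 284 lower, with a shift of the median of all probes to 0.09, and of the 10 genes 1 was then called higher and 2 lower.

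S100A10, the S100 protein that links annexin A2 chains and binds tissue plasminogen activator at the cell surface, was lower. Its log2 signal was 11.60 and 11.59 on the control arrays and 10.64 and 10.60 with the TRPM7 shRNA. The arrays of a group lay close together, and the groups did not overlap. The difference was -0.97 (SE 0.06, 95% interval -1.10 to -0.84, adjusted p = 1.52e-08), a signal 1.96-fold lower. A second S100A10 probe, with 11.13 and 11.16 on control arrays and 9.87 and 10.05 with the shRNA, gave -1.18 (adjusted p = 1.05e-08). The raw signals as deposited, before any correction, were 3474 and 2593 on the control arrays and 1714 and 1885 with the shRNA. S100A10 was called under 18 of 19 other settings, the exception being the fit that drops the intensity trend of the spread (adjusted p = 0.121).

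S100A4, the S100 protein that loosens myosin IIA filaments, was lower as well. It was at 8.83 and 8.81 on the control arrays and at 8.23 and 8.16 with the TRPM7 shRNA. The groups did not overlap. The difference was -0.63 (SE 0.09, 95% interval -0.81 to -0.44, adjusted p = 0.000235), and its second probe gave -0.82 (adjusted p = 0.000106). S100A4 was called under 17 of 19 other settings.

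ANXA5 and S100A6 were lower by less. ANXA5 was at 10.49 and 10.75 on the control arrays and at 10.22 and 10.07 with the TRPM7 shRNA, a difference of -0.48 (SE 0.09, adjusted p = 0.00479). Its groups did not overlap, and the gap between them was about as wide as the spread of the control arrays. The ANXA5 difference was -0.35 (adjusted p = 0.0939) when control replicate 2 was left out and -0.40 (adjusted p = 0.0674) when TRPM7 shRNA replicate 2 was. S100A6, which binds the ubiquitin ligase adaptor CACYBP, was at 10.45 and 10.67 on the control arrays and at 10.07 and 10.36 with the shRNA, a difference of -0.35 (SE 0.09, adjusted p = 0.0449). Its groups stood less far apart than the replicates within them, and the call was made under 7 of 19 other settings only. It was lost when any 1 of the 4 SH-EP2 arrays (adjusted p between 0.0765 and 0.0836), SH-SY5Y control replicate 2 (-0.23) or TRPM7 shRNA replicate 1 (-0.20) was left out.

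ANXA1 was the 1 gene called higher in SH-SY5Y cells. Its log2 signal was 4.89 and 5.61 on the control arrays and 6.19 and 5.86 with the TRPM7 shRNA. Both shRNA arrays lay above both control arrays, although the higher control array was closer to them than to its replicate. The difference was 0.78 (SE 0.17, 95% interval 0.43 to 1.13, adjusted p = 0.013), a signal 1.72-fold higher. The signal was close to background in this line: raw values were 143.2 and 142.3 on the control arrays and 193.8 and 185.3 with the shRNA, over background means of 103.7, 98.3, 110.0 and 110.3. The background means were higher on the shRNA arrays than on the control arrays, and their part in the result was not tested. With the background subtracted, 39.6 and 44.1 units remained on the control arrays and 83.8 and 75.0 with the shRNA. With other background corrections the difference was 0.54 with neqc, 0.32 with normexp (adjusted p = 0.0654) and 0.23 with no correction (adjusted p = 0.203), and under median scaling it was 0.94. Leaving out control replicate 1 gave 0.42 (adjusted p = 0.136), leaving out control replicate 2 gave 1.13, and leaving out TRPM7 shRNA replicate 1 gave 0.61 (adjusted p = 0.175). ANXA1 was higher in each of these fits and was called under 11 of 19 other settings.

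**Figure D2:**
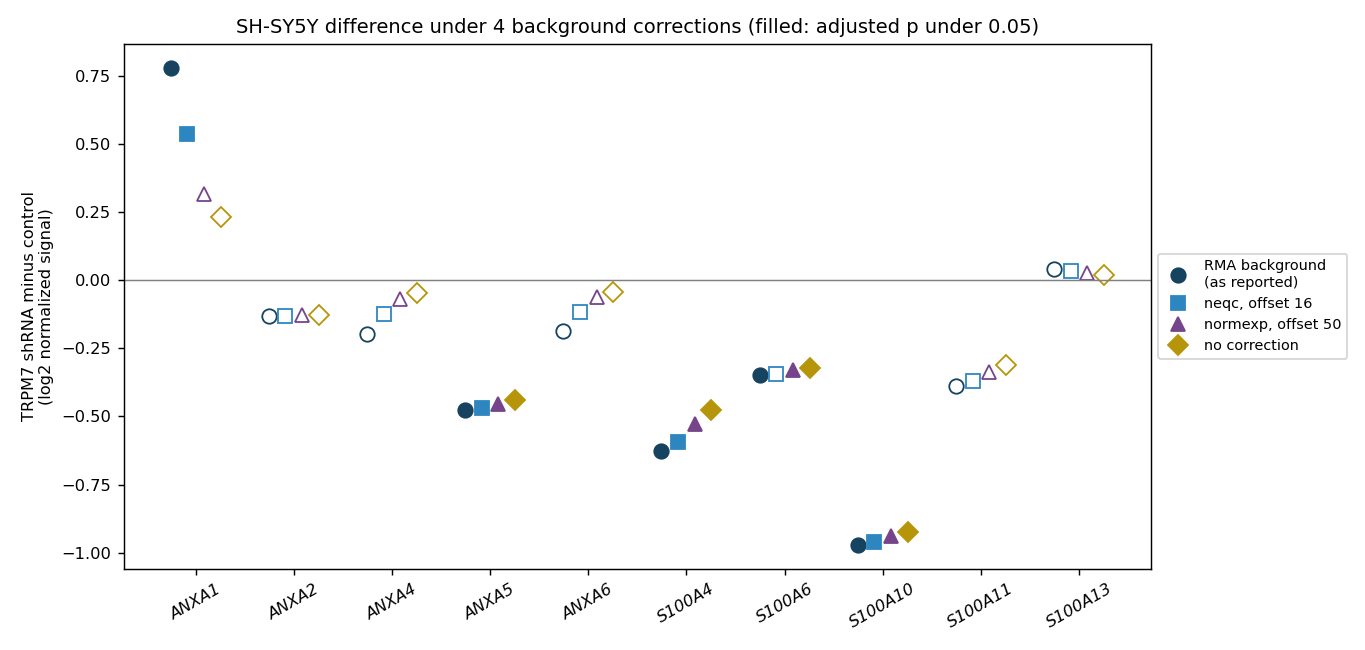
Difference between TRPM7 shRNA and control in SH-SY5Y cells (vertical axis, log2 normalized signal) for the 10 genes under 4 background corrections, with filled symbols for an adjusted p under 0.05. The ANXA1 difference is 0.78 with the RMA correction, 0.54 with neqc, 0.32 with normexp and 0.23 with none, and is not called with the last 2 (neqc and normexp also add an offset), whereas S100A10 stays between -0.97 and -0.92 and S100A4 between -0.63 and -0.48, both called with each correction.

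The other 5 genes did not pass the test in SH-SY5Y cells. S100A11, a partner of annexin A1, was at 9.09 and 9.15 on the control arrays and at 8.50 and 8.96 with the TRPM7 shRNA, a difference of -0.39 (95% interval -0.63 to -0.14, adjusted p = 0.114). The shRNA arrays were far apart, and without TRPM7 shRNA replicate 2 the difference was -0.62 (adjusted p = 0.00362), against -0.16 without replicate 1. ANXA2 was at 12.18 and 12.30 against 12.11 and 12.10, a difference of -0.13 with a 95% interval of -0.26 to 0.001, beside -0.97 for its partner S100A10. The differences of ANXA4 (-0.20, interval -0.80 to 0.40), ANXA6 (-0.19, -0.66 to 0.29) and S100A13 (0.04, -0.23 to 0.31) had intervals that spanned 0. A second ANXA6 probe, detected on only 1 control array, went the other way, with group means of 3.40 in control cells and 3.77 with the shRNA. A further S100A13 probe also differed in direction, with group means of 5.72 and 5.53.

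With the TRPM7 shRNA in SH-EP2 cells, 0 of the 10 genes were called by limma after adjustment, while 3.02% of all probes were. The 3.02% was 5.9% among probes detected on at least 2 arrays. At an unadjusted p under 0.05, 3 genes passed (S100A4, S100A6 and ANXA6), as did 12.6% of all probes. The arrays of the groups did not overlap for 5 of the 10 genes, as for 42.9% of all probes. The median difference over the 10 genes was -0.06, beside 0.0061 over all probes. When SH-EP2 was normalized and fitted alone, 3 genes were called (S100A4 and ANXA1 higher, S100A6 lower), when the tests were limited to probes detected on at least 2 arrays, 1 was (S100A4), and with the per-probe test or without the intensity trend, 0 were.

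S100A4 was at 11.28 and 11.26 on the SH-EP2 control arrays and at 11.50 and 11.60 with the TRPM7 shRNA, and the groups did not overlap. The difference was 0.28 (95% interval 0.10 to 0.47, adjusted p = 0.111; limited to detected probes, adjusted p = 0.0436). S100A6 was at 13.76 and 13.77 against 13.57 and 13.56, a small gap between tight groups of -0.20 (95% interval -0.39 to -0.01, adjusted p = 0.338). ANXA6, a long annexin with a doubled core, was at 6.88 and 6.83 against 6.19 and 6.55. The ANXA6 difference was -0.49 (95% interval -0.96 to -0.02, adjusted p = 0.373), and its shRNA arrays were further apart than its controls. Its second probe had group means of 5.61 in control cells and 5.50 with the shRNA. ANXA1 was at 12.005 and 12.11 on the control arrays and at 12.35 and 12.28 with the shRNA. Both shRNA arrays lay above both controls, by a difference of 0.26 (95% interval -0.09 to 0.61, adjusted p = 0.597).

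S100A10 was at 13.98 and 13.89 on the SH-EP2 control arrays and at 13.98 on each TRPM7 shRNA array, a difference of 0.04 (95% interval -0.09 to 0.18). Its second probe gave 0.05. S100A10 and ANXA2 signals in SH-EP2 cells were among the brightest on the arrays, above 99.78% and 99.97% of all signals by the median over the 4 arrays. Raw S100A10 signals ran from 14320 to 17320 there, and whether its probes were close to their own upper limit was not tested. ANXA2 differed by 0.03 (95% interval -0.10 to 0.16), ANXA5 by -0.02 (-0.21 to 0.17), S100A11 by -0.11 (-0.35 to 0.14) and S100A13 by -0.10 (-0.37 to 0.17). ANXA4 was at 4.93 and 5.39 against 5.13 and 4.46, a difference of -0.37 with an interval of -0.97 to 0.24.

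**Figure D3:**
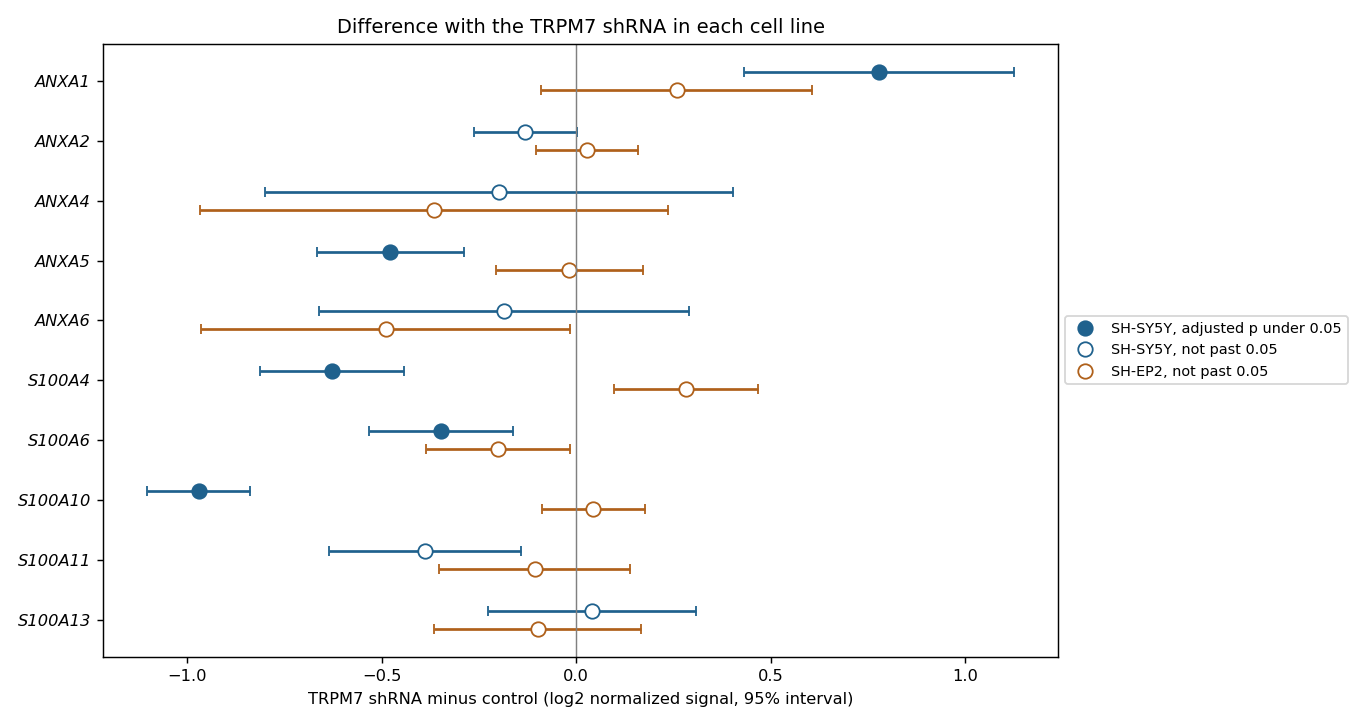
Difference between TRPM7 shRNA and control (horizontal axis, log2 normalized signal) in SH-SY5Y (blue) and SH-EP2 (orange) for the 10 genes, with 95% intervals as bars and filled points for an adjusted p under 0.05. In SH-SY5Y, S100A10 at -0.97, S100A4 at -0.63, ANXA5 at -0.48 and S100A6 at -0.35 lie left of 0 and ANXA1 at 0.78 lies right of it. None of the SH-EP2 points is filled.

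The difference of the TRPM7 shRNA effect between the lines was tested as an interaction, the SH-EP2 effect minus the SH-SY5Y effect, which called 1.4% of all probes and 2.75% of those detected on at least 2 arrays. Of the 10 genes, 2 were called, S100A10 and S100A4. For S100A10 the interaction was 1.01 (SE 0.09, adjusted p = 1.36e-06) and for its second probe 1.23 (adjusted p = 6.92e-07). For S100A4, which had opposite signs in the lines, it was 0.91 (SE 0.13, adjusted p = 0.000287) and for its second probe 1.08 (adjusted p = 0.000358). The S100A10 interaction rests in part on its bright SH-EP2 signal, whose upper limit was not tested. Both interactions passed under 16 of 18 other settings and were lost without the intensity trend and with the per-probe test.

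ANXA1 (-0.52, 95% interval -1.01 to -0.03, adjusted p = 0.446), ANXA5 (0.46, 0.19 to 0.73, adjusted p = 0.0968) and S100A6 (0.15, -0.11 to 0.41, adjusted p = 0.76) were not shown to differ between the lines. The ANXA5 interaction was 0.59 (adjusted p = 0.0194) without SH-SY5Y control replicate 1, and that of ANXA1 was -0.88 (adjusted p = 0.0137) without SH-SY5Y control replicate 2. ANXA2, ANXA4, ANXA6, S100A11 and S100A13 had adjusted p values from 0.583 to 0.939.

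Of the S100 genes measured, 16 lie on chromosome 1, where S100A10 and S100A11 are neighbours and 14 more S100 genes follow after 47 other protein-coding genes. In the order of the RefSeq annotation these are S100A9, S100A12, S100A8, S100A7A, S100A7, S100A6, S100A5, S100A4, S100A3, S100A2, S100A16, S100A14, S100A13 and S100A1. In SH-SY5Y, 7 of the 16 were detected on all 4 arrays, and in SH-EP2 8 were. S100A10 was called lower in SH-SY5Y beside its neighbour S100A11, which was not (-0.39), and S100A4 was called lower beside S100A3 and S100A5, which were undetected in that line.

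Of 15 further S100 genes, 4 were detected on at least 2 arrays. With the TRPM7 shRNA, 2.11% of all probes were called in SH-SY5Y and 3.02% in SH-EP2. Of the 15 genes, S100A16 was the 1 called in SH-SY5Y, and 0 were called in SH-EP2. S100A16 was at 4.55 and 4.26 on the SH-SY5Y control arrays and at 3.59 and 3.79 with the shRNA (-0.72, adjusted p = 0.0161). Its interaction was 0.77 (adjusted p = 0.118). Between the control cells 3 of the 15 were called higher in SH-EP2, as were 12.2% of all probes. S100A16 was higher by 5.94 on the log2 scale. S100A3 and S100A2, which were undetected in SH-SY5Y, were at least 132.5-fold and at least 17.2-fold higher. These bounds set the SH-EP2 mean against the lowest detected signal of each SH-SY5Y array.

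Of 9 further annexins, ANXA11, a partner of PDCD6 in vesicle traffic, was lower in both lines. It was at 6.55 and 6.67 on the SH-SY5Y control arrays and at 5.25 and 4.92 with the TRPM7 shRNA (-1.52, adjusted p = 3.77e-05), and at 8.05 and 7.77 against 6.70 and 6.77 in SH-EP2 (-1.17, adjusted p = 0.000599). The groups were apart in both lines, and its second probe gave -1.74 and -1.12, both called. ANXA3 was lower in SH-EP2, from 8.87 and 8.88 to 7.39 and 7.43 (-1.46, adjusted p = 0.00243), and was undetected in SH-SY5Y. Its interaction was -1.50 (adjusted p = 0.0529). ANXA8 was higher in SH-EP2, from 9.09 and 9.11 to 10.15 and 10.18 (1.07, adjusted p = 0.00468), ANXA8L1 was higher by 1.48 (adjusted p = 0.0433), and these copies are nearly identical, so that their probes may share signal. ANXA8 also passed in SH-SY5Y (adjusted p = 0.0385), where neither group was detected and no fold is given. ANXA9, undetected in SH-EP2 control cells, was at least 1.86-fold higher with the shRNA there (adjusted p = 0.0217). Between the control cells, ANXA3 and ANXA8 were at least 52.5-fold and at least 61.5-fold higher in SH-EP2.

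Of 25 genes for partners, receptors and effectors of the families, 17 were detected on at least 2 arrays. With the TRPM7 shRNA, 2 were called in SH-SY5Y and 4 in SH-EP2. Over all probes, 2.11% and 3.02% were called (4.12% and 5.9% of those detected on at least 2 arrays). PLAT, tissue plasminogen activator, a ligand of S100A10, moved opposite ways. It was at 6.63 and 6.66 on the SH-SY5Y control arrays and at 5.83 and 6.10 with the shRNA (-0.68, adjusted p = 0.0161). In SH-EP2 it was at 8.04 and 8.17 against 8.82 and 8.71 (0.66, adjusted p = 0.016), and the interaction of 1.34 passed (adjusted p = 0.00113). MYH9, the myosin IIA heavy chain that S100A4 binds, was lower in SH-EP2, from 12.42 and 12.44 to 11.76 and 11.70 (-0.70, adjusted p = 2.09e-05), with an interaction of -0.63 (adjusted p = 0.00388). Its SH-SY5Y arrays were at 9.70 and 9.62 against 9.65 and 9.53.

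Other called partners included DYSF and ASIC1. DYSF, dysferlin of the membrane repair machinery, fell in SH-EP2 from 5.91 and 5.65 to 4.26 and 3.86 (-1.72, adjusted p = 0.0384). ASIC1, an acid-sensing channel that S100A10 brings to the surface, was higher in SH-SY5Y by 0.48 (adjusted p = 0.047). AHNAK, the scaffold of the annexin A2 and S100A10 complex, was not called by its brightest probe in SH-EP2 (-0.43, adjusted p = 0.24), whereas 2 dimmer probes gave -1.97 and -2.17 (adjusted p = 0.000325 and 0.00896). CACYBP and SUGT1, which bind S100A6, differed by 0.11 and 0.01 in SH-SY5Y and by -0.12 and 0.0049 in SH-EP2 by their brightest probes. A dimmer CACYBP probe had group means of 4.37 in SH-SY5Y control cells and 5.15 with the shRNA. In SH-EP2 its group means were 5.42 and 5.15.

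Marker genes of the cell types moved with the TRPM7 shRNA as well, where 2.11% of all probes were called in SH-SY5Y and 3.02% in SH-EP2. In SH-SY5Y the summed linear signal of the 12 noradrenergic genes was between 37515 and 38269 on the control arrays. With the shRNA it was between 26679.5 and 28683, with 3 of the 12 called lower (DBH, ISL1 and STMN2). The median log2 signal of the 12 was 11.03 in SH-SY5Y control cells and 11.05 with the shRNA. In SH-EP2, 1 of the 12 was called higher and 2 lower. The summed signal of the 12 mesenchymal genes in SH-SY5Y was between 18499 and 19947 against 17291 and 17346, with 1 called lower (VIM) and 1 higher (LOX). In SH-EP2 the mesenchymal sum was between 39184 and 40347 on the control arrays and between 37100.4 and 37519 with the shRNA, with 5 called lower (COL1A1, TWIST1, THY1, PDGFRB and LOX) and 1 higher (CD44). The part of these shifts in the S100 and annexin results was not tested. Of other cell types, KRT5 and KRT14 were undetected in all groups, and the blood markers PTPRC and HBB were undetected in SH-SY5Y, where CD14 was detected on all 4 arrays (mean log2 signal 4.37 in control cells and 4.85 with the shRNA, adjusted p = 0.478). In SH-EP2 control cells, CD14 and PTPRC were detected on both arrays (7.98 and 3.41) and HBB on 1. The summed linear signal of the 3 blood genes in SH-EP2 was between 256.1 and 292.0 on the control arrays and between 76.8 and 82.5 with the shRNA. CD14 was called lower there, at 8.06 and 7.91 against 6.09 and 5.82 (-2.03, limma adjusted p = 3.22e-05), and its part in the SH-EP2 results was not tested.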

How the data were processed

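The arrays were grouped by the cell line and shRNA in their labels. The authors extracted bead intensity values and detection p-values in GenomeStudio 2011.1 and deposited the intensities without normalization. Their own normalization by Robust-Multi-Array and tests were not in these values. Intensities were corrected with the RMA background model (written out, since the package was not installed), quantile normalized across all 8 arrays and log2 transformed, without a filter. Group means were fitted with limma 3.58.1 (statmod 1.5.0, R 4.3.3), with eBayes and an intensity trend, two-sided, with Benjamini-Hochberg adjustment over 47322 probes at 0.05. A probe was detected at a detection p under 0.05. No symbol was given for 3270 probes. The file's symbols were used, ACCN2 for ASIC1. Upstream sequences came from RefSeq, GRCh38.p14. The number of arrays limits the precision.

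The 10 genes, the related lists (other annexins, other S100 genes, partners) and the marker lists were chosen with earlier results of these data known. All 10 genes are named, together with TRPM7, the genes of each related list called in either line, up to 6 per list, and the 5 probes whose pattern was most like ANXA1. Partners named without a call were chosen after their values were seen. The procedure was tested on simulated data. The changes planted there were larger than any shRNA difference of the 10 genes and lay only in probes detected on all arrays. Recovery of smaller changes, or of signals close to background, was not tested. Each result was recomputed without background correction (floor 1), with normexp (offset 50) or neqc (offset 16), with median scaling, after a filter to probes that 2 or more arrays detected, with eBayes that ignores intensity, with a per-probe test, within a single line, with the replicate number as a block, with the probes of each gene averaged, and with 1 array left out. A block with the SH-SY5Y numbers crossed was added after the data were seen. Where 1 array was left out, the remaining array was assumed to vary like the other groups.

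The replicate numbers did not pair the arrays. Protein and RT-PCR measurements were not analysed here. A called partner gene and a probe that followed ANXA1 are not reported here.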

Additional observations from a re-analysis of the deposited data

Results flagged for a closer look

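S100A10 and S100A4 stood out because their responses to the TRPM7 shRNA differed between SH-EP2 and SH-SY5Y cells by a test of the difference itself. For S100A10 the SH-EP2 effect minus the SH-SY5Y effect was 1.01 (SE 0.09, limma adjusted p = 1.36e-06), where the SH-EP2 effect was 0.04 and the SH-SY5Y effect -0.97. For S100A4 it was 0.91 (SE 0.13, adjusted p = 0.000287), from 0.28 in SH-EP2, which did not pass on its own, and -0.63 in SH-SY5Y. In both genes a second probe gave an interaction past the threshold. The groups had 2 arrays each, too few to test single arrays as outliers.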

How the results depend on the processing

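Of 710 values of the 10 genes under the alternatives, 669 stayed on their side of the threshold, 32 lost a call and 9 gained one. No called value turned its sign, and 18 uncalled ones did. The 9 genes higher in SH-EP2 control cells were called under every alternative run for that comparison. In SH-SY5Y 5 genes were called, against 3 with median scaling, with each line alone and with the mean over probes, 1 with the per-probe test and 0 without the intensity trend. Leaving out arrays gave 3 to 5, with 3 without SH-SY5Y control replicate 2 or TRPM7 shRNA replicate 1. In SH-EP2 0 were called, against 1 over detected probes and 3 with the line alone. Of the 2 interactions, 0 passed without the trend and 0 with the per-probe test. The related lists had 11 genes called in either line, 7 with median scaling, 1 without the trend, 0 with the per-probe test and 4 to 11 with arrays left out, where 4 or 5 followed from leaving out any SH-EP2 array. The cause of these shifts was not tested. Over all probes, calls in SH-SY5Y and SH-EP2 fell from 999 and 1429 to 64 and 100 without the trend and to 50 and 103 with the per-probe test, and were 559 and 881 with the mean over probes. SH-EP2 alone gave 2587. Leaving out an array gave as few as 622 in SH-SY5Y and 675 in SH-EP2.

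Same-numbered arrays did not deviate together (r of -0.11 in SH-SY5Y and -0.0045 in SH-EP2 over 14577 probes), so the numbers were not taken as pairs. With the replicate number as a block, 5, 0 and 2 of the 10 genes were called in SH-SY5Y, in SH-EP2 and for the interaction, and 7 of the related genes. With the SH-SY5Y numbers crossed, 6 genes were called in SH-SY5Y, 3 for the interaction and 12 related genes. Signals close to background limit ANXA1 in SH-SY5Y cells, ANXA4 and ANXA6.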

Other observations

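The 5 probes whose log2 signal followed that of ANXA1 most closely over the 8 arrays, among 20567 candidates, included those of CHPF2, GAGE5, CAV2 and PSMB9, with a likeness (Pearson r) of 0.999 to 0.9986. The arrays fall into the 2 cell lines, so that this likeness describes mostly the line difference, which was 6.84 for PSMB9 and 6.01 for CAV2 on the log2 scale. With the TRPM7 shRNA in SH-SY5Y cells, the log2 difference of CAV2, a caveola protein, was 0.93, beside 0.78 for ANXA1. CHPF2, GAGE5 and PSMB9 differed by 0.45, 0.58 and 0.40 there. In SH-EP2 the difference was 0.12 for CAV2, 0.07 for CHPF2, 0.61 for GAGE5 and 0.18 for PSMB9, beside 0.26 for ANXA1. The probes were picked for their likeness over these same arrays, so that similar differences are no separate result.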
